A study of Triticum aestivum with 24 samples.

Results

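VRN1 and FT1 are flowering genes of wheat (Triticum aestivum), a hexaploid in which most genes have an A, a B and a D copy. The VRN1 triad lies on group 5 chromosomes, as TraesCS5A02G391700, TraesCS5B02G396600 and TraesCS5D02G401500. The FT1 triad, also called VRN3, lies on group 7, as TraesCS7A02G115400, TraesCS7B02G013100 and TraesCS7D02G111600. These 6 genes, out of 107891 identifiers in the deposited table, were chosen by gene name, with earlier results of these data known, and are called here by gene and chromosome (VRN1-5A, FT1-7B). The table gives identifiers without names, and 0 of them matched the reference table of 155467 wheat genes, so the names rest on that choice of identifiers.

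RNA was sequenced from leaves of the spring line Fielder, labelled WT, and of transgenic lines made from it that carry a wheat TOR gene. TOR, the target of rapamycin, is a kinase through which cells adjust growth to nutrients and energy. The transgene is driven by the promoter that names each line, UBQ, DREM or DEH2; the labels do not say what these promoters are, how many transformation events a line stands for, or whether replicates are separate plants. The groups are UBQ drought, DREM drought, DEH2 drought and WT drought, and UBQ, DREM, DEH2 and WT well-watered, with 3 libraries each and 24 in all. Per the protocol, plants had 16 h of light a day and were watered to 80% field capacity for their first 4 weeks, after which water was withheld for 12 days; this is stated for an assessment of drought tolerance, and whether the sequenced leaves come from it is not said. The design described for the series, with 27 samples, other genotype names and plants watered again, differs from the 24 sample labels, from which the groups were taken. No source used here gives the day of leaf sampling, the age of the well-watered plants on that day, or whether the plants grew in soil or hydroponics. The p-values measure only the spread between libraries within groups, which may be technical. For each gene this spread was estimated over all 8 groups together, so groups outside a comparison also enter its SE and p-value.

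VRN1 encodes a MADS-box transcription factor that promotes the transition of the shoot apex from vegetative growth to flowering. In cereals it is raised by long cold in winter types, is active without cold in spring types, and represses the flowering repressor VRN2 in leaves. FT1 encodes florigen, a small protein made in leaves under long days that moves to the apex, where it activates VRN1. In leaves VRN1 and FT1 are known to rise together as plants approach flowering.

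The deposited values were normalized counts, and their sum per library corresponded to an estimated 33700000 to 55300000 reads. A count of 0 allows up to 3 reads, a normalized count of 1.95 to 4.63 depending on the library; such floors cover counting error only. Expression along parts of 4 chromosomes differed within genotype labels. Over 210 genes at the start of chromosome 1B the median log2 deviation from the 4 groups of the same water regime was -4.88 in DREM drought, against 0.10 in DREM well-watered. In DEH2 it was 0.19 under drought and -4.97 in well-watered plants. Over 1470 genes of chromosome 2A it was 0.06 in UBQ drought and -0.77 in UBQ well-watered. In WT the same 2A genes had -0.71 under drought and 0.04 in well-watered plants. Over 240 genes at the start of 6B it was -4.03 in UBQ drought, against -0.047 in UBQ well-watered, and over 120 genes of 4B it was 0.75 in UBQ drought and -0.027 in UBQ well-watered. Library 1 of WT drought also stood apart, where the 50 most abundant genes took 29.0% of the total, while they took 12.6% in both other libraries of that group. Groups are called by their labels below.

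VRN1-5A was high in 5 of the 8 groups and low in the other 3, which were UBQ drought, DEH2 drought and DREM well-watered. In UBQ drought it had 209, 215 and 246 normalized counts, against 18805, 18721 and 15548 in UBQ well-watered. This was the widest gap of VRN1-5A between the regimes of any label. In DREM the order was the opposite, with 6478, 6438 and 6371 under drought and 299, 323 and 263 in well-watered plants. DEH2 again had the lower values under drought, at 1053, 612 and 802, against 10748, 9540 and 9053 in well-watered plants. In WT it had 9539, 10964 and 10314 under drought and 7271, 5993 and 5261 in well-watered plants. No pair of regimes overlapped within a label. By mean level the order was UBQ well-watered, WT drought, DEH2 well-watered, DREM drought, WT well-watered, DEH2 drought, DREM well-watered and UBQ drought. Library ranges of neighbours in this order overlapped only for WT drought with DEH2 well-watered and for DREM drought with WT well-watered.

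VRN1-5B had a narrower range, with group means from 1079 to 6222 normalized counts. UBQ drought had 1123, 1015 and 1098, against 6432, 6382 and 5851 in UBQ well-watered. DREM drought had 4842, 4761 and 4773, against 1683, 1564 and 1487 in DREM well-watered. Only these 2 groups, UBQ drought and DREM well-watered, lay below 3766, the lowest value in the other groups. In DEH2, where VRN1-5A was 11.9-fold lower under drought, VRN1-5B had 4876, 4917 and 4888 under drought and 5233, 4580 and 4540 in well-watered plants. The WT values were 5757, 6145 and 6247 under drought and 5023, 4481 and 3766 in well-watered plants, without overlap.

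VRN1-5D stayed at or under 182 normalized counts. It had 0, 1.81 and 0 normalized counts in UBQ drought, an estimated 2.01 reads in all, against 171, 182 and 168 in UBQ well-watered. DREM drought had 91.0, 69.1 and 50.9, against 0, 5.31 and 5.72 in DREM well-watered. The DEH2 values were 16.8, 0 and 17.9 under drought and 123, 108 and 82.3 in well-watered plants. As with VRN1-5A, the 3 groups UBQ drought, DREM well-watered and DEH2 drought were the lowest. WT had 69.4, 63.6 and 62.9 under drought and a wide 71.6, 36.4 and 18.8 in well-watered plants, and these overlapped.

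**Figure D1:**
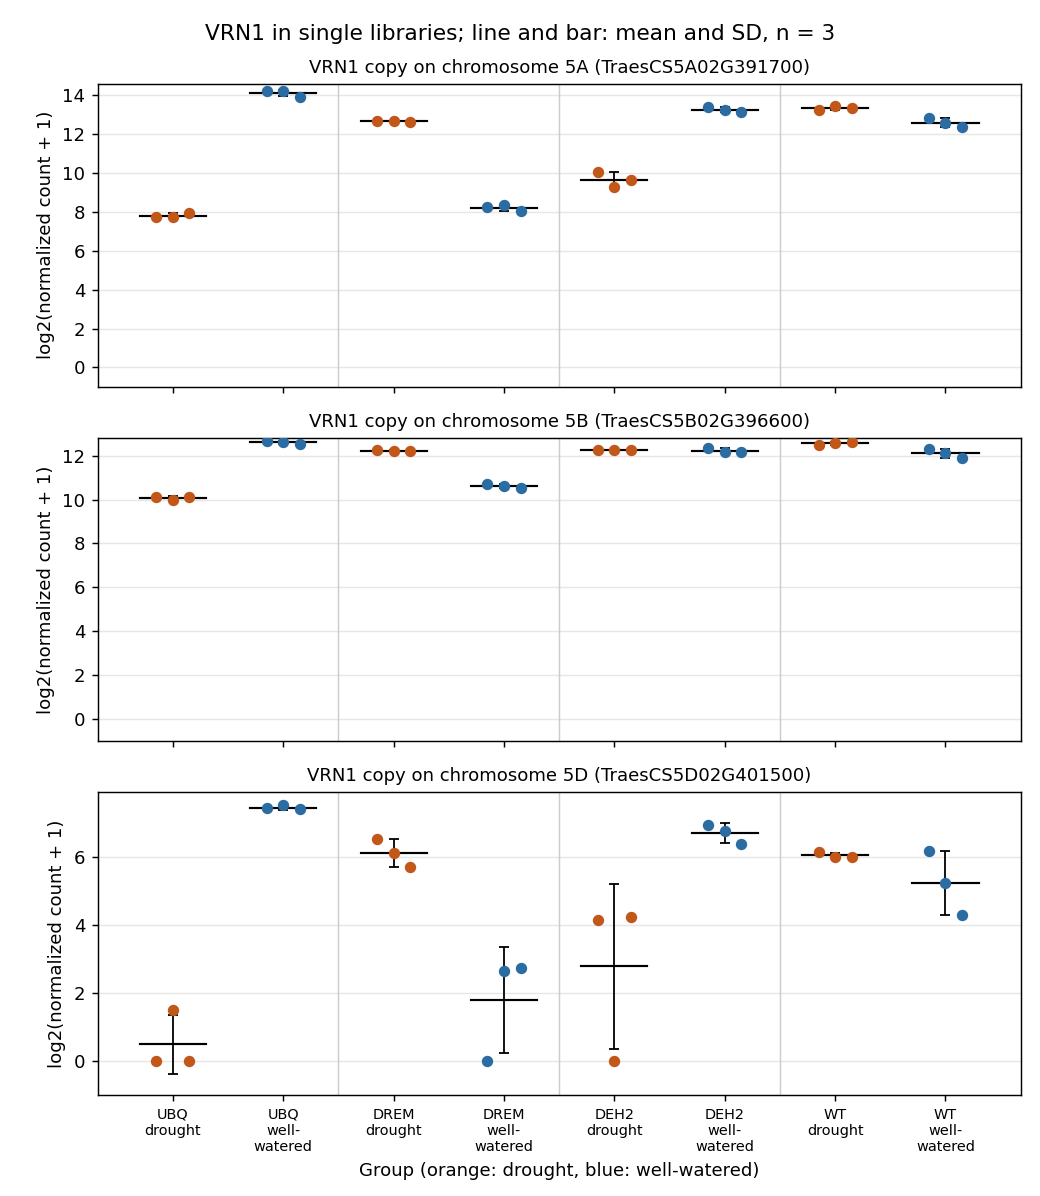
VRN1 by library: log2(normalized count + 1) of each VRN1 copy (vertical axis) in the 8 groups (horizontal axis), with 1 point per library and the mean and SD on the log2 scale (n = 3). UBQ drought and DREM well-watered are low for all 3 copies, and DEH2 drought is low for 5A and 5D while its 5B points lie level with DEH2 well-watered.

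The copies did not move in proportion, so the makeup of the VRN1 triad differed between groups. VRN1-5A gave 17.2% ± 1.3 of the triad's summed normalized counts in UBQ drought, 15.7% ± 1.2 in DREM well-watered and 14.3% ± 3.3 in DEH2 drought (SD, n = 3 each). In the other 5 groups its mean share lay between 56.9% (DREM drought) and 73.4% (UBQ well-watered), with no overlap of libraries between these sets of groups. The share of VRN1-5B was correspondingly 82.8% in UBQ drought, 84.1% in DREM well-watered and 85.5% in DEH2 drought, against 25.9% to 42.4% elsewhere. VRN1-5D stayed at or under 0.798% in every library. Shares are not corrected for transcript length and serve to compare groups, not copies. Reads of the copies are alike, so the deposited values may assign some to the wrong copy. The summed triad, which such assignment touches less, had the same order of groups as VRN1-5A. Since VRN1-5A gave most of that sum in 5 groups, the shared order does not test the assignment.

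FT1-7B ranged from 0 to 2747 normalized counts. In UBQ drought it had 0.771, 0 and 4.25, an estimated 7.20 reads over the 3 libraries, against 1998, 2095 and 2033 in UBQ well-watered. DREM drought had 1115, 1007 and 990.5, against 114, 157 and 141 in DREM well-watered. The DEH2 values were 317, 251 and 337 under drought and 1905, 1713 and 1633 in well-watered plants. In WT it had 1065, 939 and 1023 under drought and 2747, 2266 and 1934 in well-watered plants. The groups of the 2 regimes did not overlap in any label, and DREM was the label with the higher values under drought. The order of group means was WT well-watered, UBQ well-watered, DEH2 well-watered, DREM drought, WT drought, DEH2 drought, DREM well-watered and UBQ drought. Neighbours overlapped only for WT with UBQ well-watered and for DREM with WT drought.

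FT1-7D was highest in DREM drought, at 526, 515 and 590 normalized counts, against 18.0, 15.8 and 13.3 in DREM well-watered. In UBQ drought it was at 0, 0 and 0.707, an estimated 1.03 reads in all, against 130, 118 and 106 in UBQ well-watered. DEH2 had 75.9, 65.8 and 57.0 under drought and 243, 248 and 246 in well-watered plants. WT drought had 228, 200 and 191, against 459, 366 and 319 in WT well-watered. No 2 groups next to each other in the order of FT1-7D overlapped.

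FT1-7A was also highest in DREM drought, at 85.9, 103 and 165 normalized counts, against 0, 0 and 4.95 in DREM well-watered. It was listed at 0 in all 3 UBQ drought libraries and had 6.26, 7.10 and 2.48 in UBQ well-watered. The DEH2 values, 16.4, 14.8 and 10.9 under drought and 12.7, 16.5 and 6.54 in well-watered plants, overlapped. So did those of WT, with 53.7, 43.9 and 46.6 under drought and 66.6, 46.7 and 52.4 in well-watered plants. In well-watered plants FT1-7A thus lay at or under 16.5 in every library of the lines and between 46.7 and 66.6 in WT.

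**Figure D2:**
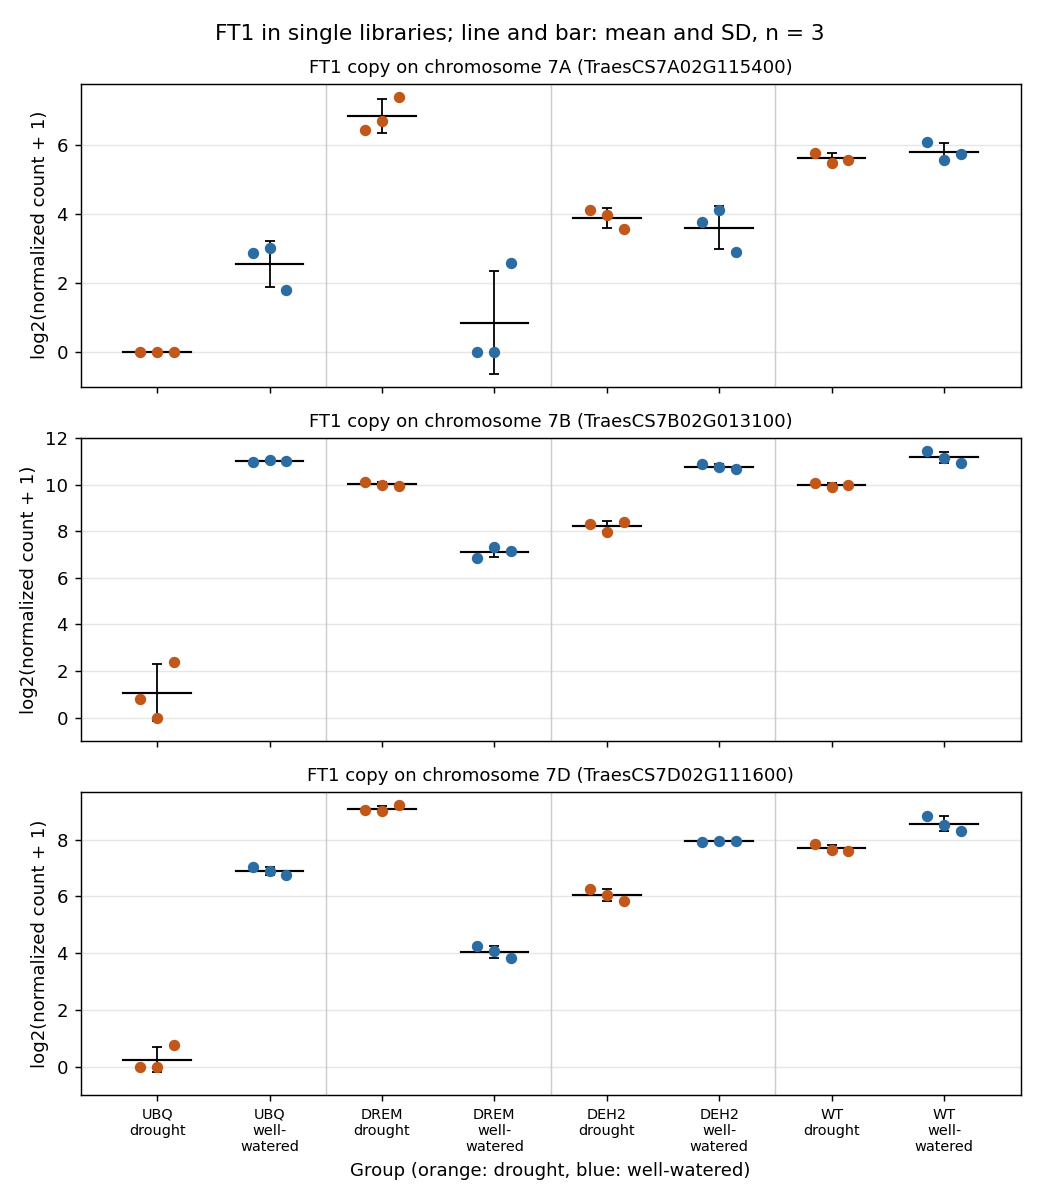
FT1 by library: log2(normalized count + 1) of each FT1 copy (vertical axis) in the 8 groups (horizontal axis), with 1 point per library and the mean and SD on the log2 scale (n = 3). UBQ drought lies at or near 0 for all 3 copies, and DREM drought is the highest group for 7A and 7D and not for 7B.

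The FT1 triad also changed its makeup. FT1-7D gave 32.0% ± 1.7 of the summed FT1 counts in DREM drought and 10.4% ± 2.8 in DREM well-watered (SD, n = 3 each). In UBQ well-watered it gave 5.46% ± 0.58, with 94.3% ± 0.65 from FT1-7B (SD, n = 3 each). The other groups, UBQ drought aside, lay between 12.3% (DEH2 well-watered) and 17.5% (DEH2 drought) for FT1-7D. UBQ drought had an estimated 8.23 reads of FT1 in all, too few for a share.

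**Figure D3:**
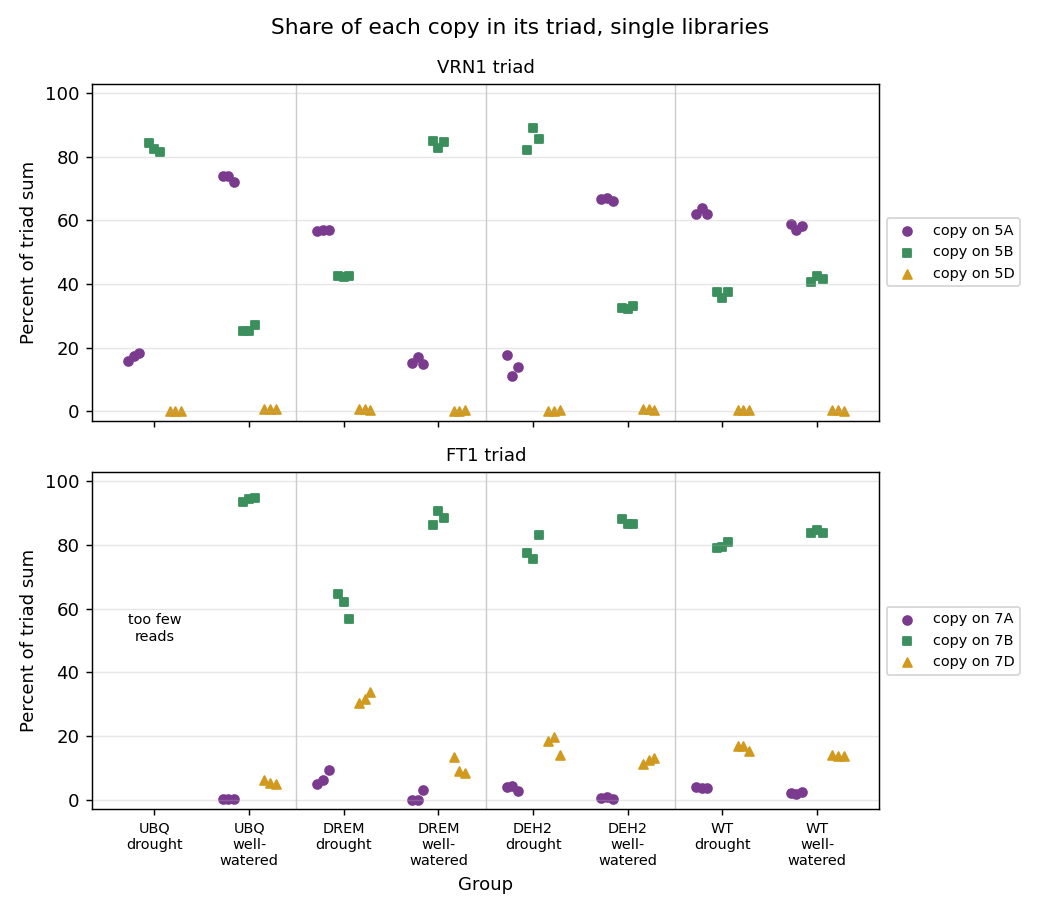
Triad makeup: percent of the summed normalized counts of the triad (vertical axis) given by the A, B and D copy in each library (points) of the 8 groups (horizontal axis). VRN1-5A gives 11.1% to 18.3% in the libraries of UBQ drought, DREM well-watered and DEH2 drought, and FT1-7D reaches its highest share in DREM drought.

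The first comparison was drought against well-watered plants within each label, by limma on log2(normalized count + 1) over 60088 tested genes, all 6 flowering genes among them. All 6 fell in UBQ, where 35.6% of the tested genes were called lower (Benjamini-Hochberg adjusted p under 0.05). All 6 rose in DREM, where 35.2% of genes were called higher. In DEH2 4 of the 6 fell, beside 34.5% of all genes. In WT VRN1-5A and VRN1-5B rose and FT1-7B and FT1-7D fell, beside 30.2% of all genes called higher and 31.2% lower. With shares this large, the number of members called says little, and the sizes of the changes are given next. Over all tested genes the median size of the log2 change, without its sign, was 0.87 in UBQ, 0.74 in DREM, 0.75 in DEH2 and 0.58 in WT.

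In UBQ FT1-7B stood at -9.92 ± 0.37 (log2 difference ± SE), a 1221-fold lower mean (adjusted p = 5.62e-14). This size rests on the 7.20 reads in UBQ drought: it was -10.58 without library 3 of UBQ drought, -11.46 with a pseudocount of 0.1 and -7.47 with a pseudocount of 10. FT1-7D fell by 6.63 on the log2 scale, and with 1.03 reads in the lower group the fold was 501, with 95% counting limits of 81.3 and 17887. Such limits cover the counting error of the estimated reads in the lower group only, not the spread between libraries. FT1-7A, with 0 reads in UBQ drought, was at least 2.25-fold lower against a floor of 3 reads in each library. VRN1-5A fell by 6.30 ± 0.15 (adjusted p = 4.60e-17), or 79.1-fold, and VRN1-5B fell by 2.53 ± 0.07, or 5.77-fold. VRN1-5D, with 2.01 reads in UBQ drought, was 288-fold lower, with counting limits of 92.3 and 2754. Apart from FT1-7A, each gene was lower in all 3 drought libraries than in all 3 well-watered ones. For FT1-7A the floors of the UBQ drought libraries (2.06 to 2.71) reach the lowest UBQ well-watered value, 2.48, so that separation is not established at this depth. The 6B and 4B regions differ between the UBQ regimes, as does 2A, so plants of unlike origin and drought cannot be told apart in UBQ either.

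In DREM VRN1-5A rose by 4.45 ± 0.15 (adjusted p = 1.24e-14), or 21.8-fold, VRN1-5B by 1.60 ± 0.07, or 3.04-fold, and VRN1-5D by 4.32 ± 0.91 (3.41 without library 1 of DREM well-watered). FT1-7A rose by 5.98 ± 0.50 (6.84 without library 3 of DREM well-watered) and FT1-7D by 5.03 ± 0.19 (adjusted p = 4.68e-21), or 34.6-fold. The rise of FT1-7B was smaller, at 2.92 ± 0.37, or 7.54-fold. Every gene was higher in all 3 drought libraries than in all 3 well-watered ones. Expression of the 1B region was lower in the drought than in the well-watered libraries of DREM, so plants of unlike origin and drought cannot be told apart here.

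In DEH2 VRN1-5A fell by 3.60 ± 0.15 (adjusted p = 2.92e-13), VRN1-5D fell by 3.90 ± 0.91, FT1-7B fell by 2.54 ± 0.37 and FT1-7D fell by 1.88 ± 0.19. VRN1-5D, at 0 in library 2 of DEH2 drought, stood at -2.51 without that library, and at -4.58 and -4.62 without library 1 or 3 of DEH2 drought; its call stood each time. VRN1-5B did not pass the test, at 0.04 with a 95% interval from -0.11 to 0.18, and neither did FT1-7A, at 0.28 with an interval from -0.73 to 1.30. Scaling all libraries to a common sum moved the median of all genes to 0.42 in this comparison and VRN1-5B to 0.45 (adjusted p = 6.21e-05), so its value stayed close to that median under either scaling. The 1B region again differs between the DEH2 regimes, in the other direction from DREM. Plants of unlike origin and drought therefore cannot be told apart in DEH2 either.

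In WT the changes were the smallest of the 4 labels for 5 of the 6 genes, VRN1-5B being the exception through DEH2. VRN1-5A rose by 0.74 ± 0.15 (adjusted p = 0.000422) and VRN1-5B by 0.46 ± 0.07 (adjusted p = 1.92e-06), or 1.66-fold and 1.37-fold. FT1-7B fell by 1.18 ± 0.37 (adjusted p = 0.0107) and FT1-7D fell by 0.87 ± 0.19 (adjusted p = 0.000192), to means 2.30-fold and 1.84-fold lower. WT was thus the label in which called VRN1 copies and called FT1 copies went in opposite directions. The 2A region was at -0.71 in WT drought and 0.04 in WT well-watered. Plants of unlike origin and drought therefore cannot be told apart in WT either. VRN1-5D, at 0.81 with an interval from -1.11 to 2.73, and FT1-7A, at -0.19 with an interval from -1.20 to 0.83, did not pass. With a pseudocount of 0.1 the falls of FT1-7B and FT1-7D lost their calls (adjusted p = 0.213 and 0.140). Their values stayed at -1.19 and -0.87, while their SE rose to 0.79 and 0.50. That SE comes from all groups, among them UBQ drought, where both genes were near 0. Without library 1 of WT drought all 4 calls stood.

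**Figure D4:**
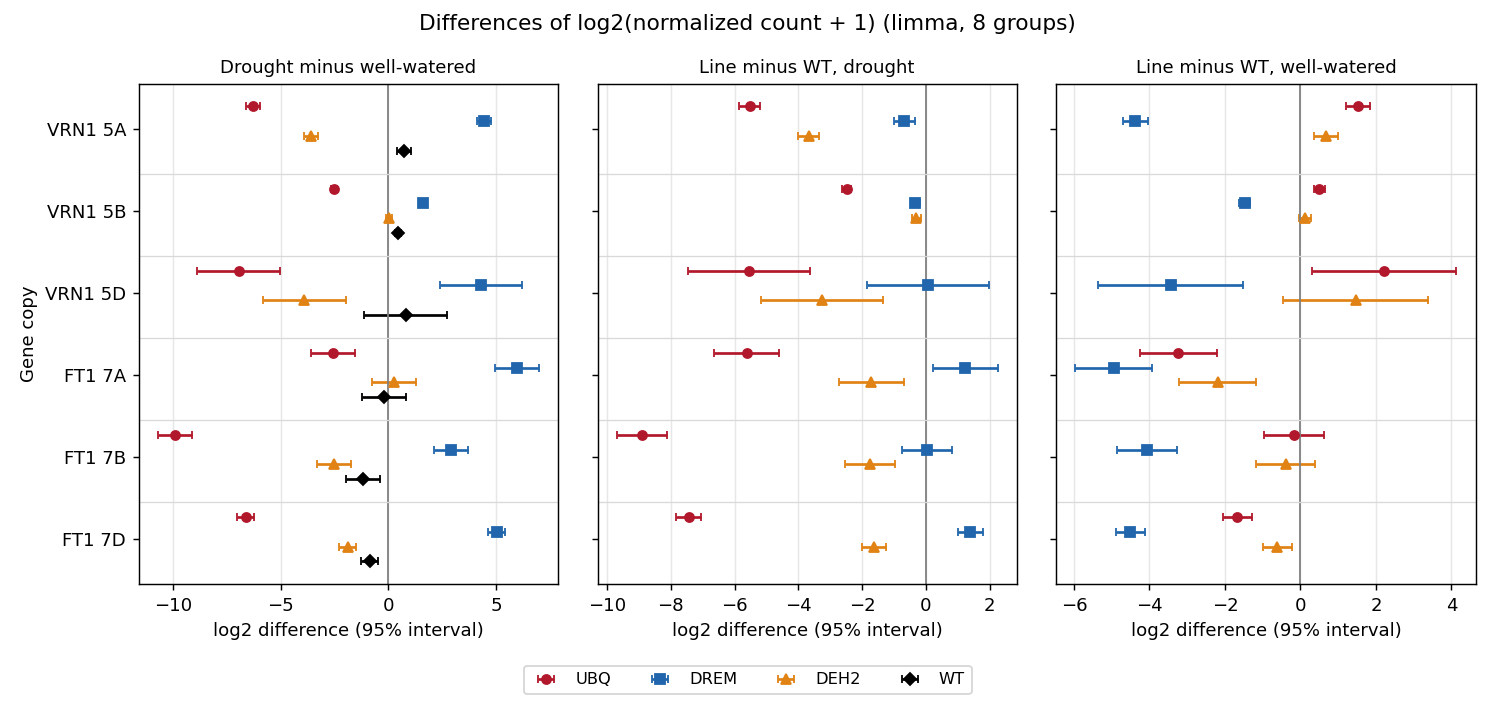
Differences in VRN1 and FT1: log2 difference (horizontal axis, limma estimate with its 95% interval) of each of the 6 copies (vertical axis), for drought minus well-watered in each label and for each line minus WT in either regime. UBQ lies left of 0 and DREM right of 0 for every copy in the drought comparison, and in well-watered plants DREM lies left of 0 for every copy.

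The second comparison set each TOR line against WT under drought. In WT drought the 2A region was lowered (-0.71), and in the lines under drought it was not (0.06 to 0.07). The 6B and 4B regions were shifted in UBQ drought and the 1B region in DREM drought. Plants of unlike origin and the transgene therefore cannot be told apart in this comparison. UBQ and DEH2 were lower than WT for all 6 genes, beside 30.3% and 29.7% of all tested genes called lower. In UBQ the differences were -5.52 ± 0.15 for VRN1-5A, -2.49 ± 0.07 for VRN1-5B, -8.91 ± 0.37 for FT1-7B and -7.44 ± 0.19 for FT1-7D (each adjusted p at most 7.69e-16 except FT1-7B, 5.71e-13). FT1-7B was at -9.57 without library 3 of UBQ drought. FT1-7A was at least 20.5-fold lower in UBQ. In DEH2 VRN1-5A was lower by 12.5-fold, at -3.67 ± 0.15 (adjusted p = 4.07e-13), and the FT1 copies by 3.12-fold to 3.42-fold. VRN1-5D was at -3.25 ± 0.91 in DEH2, and at -1.86 without library 2, -3.93 without library 1 and -3.98 without library 3 of DEH2 drought. VRN1-5B was lower in DEH2 by -0.30 ± 0.07 (adjusted p = 0.000583), but with a common sum, where the median of all genes moved to 0.26, it stood at -0.04 (adjusted p = 0.733).

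Of the lines DREM had the smallest difference from WT under drought for 5 of the 6 genes; for VRN1-5B the difference was smaller in DEH2. VRN1-5A was 1.60-fold lower in DREM, at -0.67 ± 0.15 (adjusted p = 0.00113), and VRN1-5B 1.26-fold lower, at -0.34 ± 0.07 (adjusted p = 0.000193), beside 30.3% of all genes called lower. FT1-7D was 2.63-fold higher, at 1.39 ± 0.19 (adjusted p = 1.59e-07), and FT1-7A 2.46-fold higher, at 1.23 ± 0.50 (adjusted p = 0.0350), beside 28.6% of all genes called higher. VRN1-5D, at 0.07 with a 95% interval from -1.85 to 1.99, and FT1-7B, at 0.04 with an interval from -0.75 to 0.83, did not pass. With a common sum, where the median of all genes moved to 0.45, VRN1-5A stood at -0.20 and VRN1-5B at 0.14, and neither was called (adjusted p = 0.261 and 0.200). The call of FT1-7A was lost without any single library of WT drought and without library 2 or 3 of DREM drought, at values from 0.96 to 1.31.

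The third comparison was between the lines and WT in well-watered plants, where fewer genes differed overall. DREM was lower than WT for all 6 genes, beside 11.7% of all tested genes. VRN1-5A was 20.9-fold lower, at -4.38 ± 0.15 (adjusted p = 1.01e-12), VRN1-5B 2.80-fold lower, at -1.48 ± 0.07, FT1-7B 16.8-fold lower, at -4.06 ± 0.37 (adjusted p = 3.99e-07), and FT1-7D 24.3-fold lower, at -4.51 ± 0.19 (adjusted p = 2.63e-17). FT1-7A had an estimated 5.91 reads in DREM and stood at -4.94 ± 0.50 (-5.80 without library 3 of DREM well-watered). VRN1-5D was lower by -3.43 ± 0.91 (adjusted p = 0.0111), a call that was lost without library 1 of WT well-watered (-2.96) or library 1 of DREM well-watered (-2.53). Of the regions described above none was shifted in either of these groups, with medians from 0.019 to 0.10 in DREM and from 0.011 to 0.10 in WT. Both labels did hold a shifted group under drought, with 1B at -4.88 in DREM drought and 2A at -0.71 in WT drought. Whether the well-watered DREM and WT plants differ in origin outside these regions was not tested. Over all tested genes the median size of the difference was 0.23.

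UBQ well-watered had more VRN1 and less of some FT1 copies than WT well-watered. The 2A region was at -0.77 in UBQ well-watered and 0.04 in WT well-watered, so plants of unlike origin and the transgene cannot be told apart. VRN1-5A was 2.86-fold higher in UBQ, at 1.53 ± 0.15 (adjusted p = 4.79e-07), and VRN1-5B 1.41-fold higher, at 0.50 ± 0.07 (adjusted p = 2.02e-06), beside 15.2% of all genes called higher. FT1-7A was 10.5-fold lower, at -3.24 ± 0.50 (adjusted p = 5.19e-06), and FT1-7D 3.23-fold lower, at -1.67 ± 0.19 (adjusted p = 2.16e-08), beside 15.9% of all genes called lower. FT1-7B did not pass, at -0.17 with a 95% interval from -0.95 to 0.62. VRN1-5D, at 2.21 ± 0.91 without overlap of the groups, missed the threshold (adjusted p = 0.0757), and passed it without library 2 of DEH2 drought or library 1 of DREM well-watered, which share the estimate of its spread (adjusted p = 0.00418 and 0.0491).

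DEH2 well-watered was closer to WT well-watered. The 1B region was at -4.97 in DEH2 well-watered and 0.10 in WT well-watered, so here too plants of unlike origin and the transgene cannot be told apart. VRN1-5A was 1.58-fold higher, at 0.67 ± 0.15 (adjusted p = 0.00439), beside 8.98% of all genes called higher. FT1-7A was 4.63-fold lower, at -2.19 ± 0.50 (adjusted p = 0.00153), and FT1-7D 1.55-fold lower, at -0.62 ± 0.19 (adjusted p = 0.0191), beside 10.5% of all genes called lower. FT1-7D lost its call without library 1 of WT well-watered (-0.47) or library 1 of DEH2 well-watered (-0.61). VRN1-5B (0.12, interval from -0.03 to 0.27), VRN1-5D (1.46, interval from -0.46 to 3.38) and FT1-7B (-0.39, interval from -1.18 to 0.40) did not pass; VRN1-5B was called without library 1 of WT well-watered, at 0.22.

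The fourth comparison tested whether the drought effect itself differed between each line and WT. In UBQ it was lower than in WT for all 6 genes, beside 26.8% of all tested genes, with differences from -8.74 ± 0.53 for FT1-7B to -2.37 ± 0.71 for FT1-7A. That of FT1-7A, from a group at 0 reads, was -0.44 with a pseudocount of 10 and lost its call (adjusted p = 0.244), and that of FT1-7B was -9.40 without library 3 of UBQ drought. In DREM it was higher for all 6, beside 20.7% of all genes, from 1.14 ± 0.10 for VRN1-5B to 6.17 ± 0.71 for FT1-7A (7.03 without library 3 of DREM well-watered). In DEH2 it was lower for 5 of 6, beside 24.9% of all genes, with -4.35 ± 0.22 for VRN1-5A, -4.72 ± 1.28 for VRN1-5D and -1.02 ± 0.27 for FT1-7D (adjusted p = 0.00208). With a pseudocount of 0.1 VRN1-5D and FT1-7D lost these calls (adjusted p = 0.0610 and 0.249), and VRN1-5D ranged from -5.44 (without library 3 of DEH2 drought) and -5.39 (without library 1) to -3.32 (without library 2). FT1-7A was not called in DEH2, at 0.47 with a 95% interval from -0.97 to 1.91. The calls nearest to the threshold were VRN1-5D in DREM (3.50 ± 1.28, adjusted p = 0.0349), which was lost in 8 of 24 fits that each left out 1 library (2.60 without library 1 of DREM well-watered), and FT1-7B in DEH2 (-1.36 ± 0.53, adjusted p = 0.0422), which was lost in 13 of 24, with adjusted p up to 0.101 and 0.0907. VRN1-5B in DEH2 (-0.42 ± 0.10) lost its call with a common sum (-0.18, adjusted p = 0.268), where the median of all genes moved to 0.23. These differences share the WT libraries and are not independent of each other.

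VRN1 and FT1 taken as sums of their copies put the same 3 groups lowest and in the same order: DEH2 drought, with 5728 ± 209 for VRN1 and 382 ± 44 for FT1, then DREM well-watered, with 1877 ± 114 and 155 ± 21, then UBQ drought, with 1303 ± 62 for VRN1 (SD, n = 3 each) and 0.771, 0 and 4.95 normalized counts of FT1 in its libraries. The order of the other 5 groups differed. For VRN1 it was UBQ well-watered (24087 ± 2183), WT drought (16387 ± 927), DEH2 well-watered (14669 ± 1273), DREM drought (11292 ± 110) and WT well-watered (10641 ± 1664). For FT1 it was WT well-watered (2752 ± 488), UBQ well-watered (2165 ± 47), DEH2 well-watered (2008 ± 140), DREM drought (1699 ± 65) and WT drought (1264 ± 82; SD, n = 3 each). The 1B region was lowered in DREM drought (-4.88) and DEH2 well-watered (-4.97). The 2A region was lowered in UBQ well-watered (-0.77) and WT drought (-0.71). Groups of unlike genotype labels thus shared a lowered region, and whether sample labels were mixed up was not tested. The 6B region was lowered in UBQ drought, the lowest group for both genes. Which plants the groups stand for and their water regime cannot be told apart from these values.

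**Figure D5:**
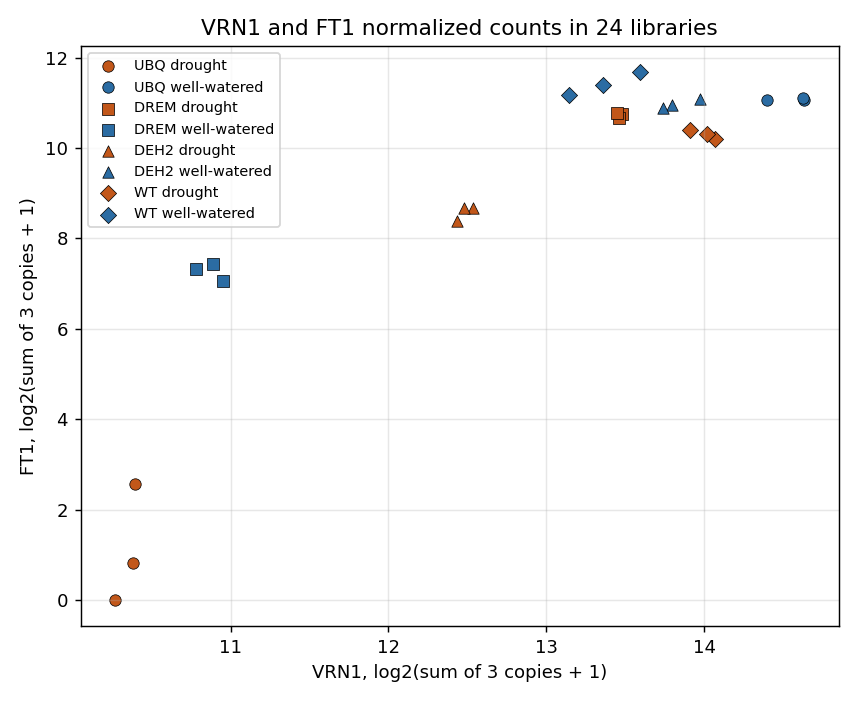
VRN1 and FT1 together: log2 of the summed normalized counts + 1 of the VRN1 copies (horizontal axis) and of the FT1 copies (vertical axis) in each of the 24 libraries (points). The libraries of UBQ drought, DREM well-watered and DEH2 drought lie apart at the lower left, and the other 5 groups lie together at the upper right.

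A rise under drought in DREM with a fall in both UBQ and DEH2 was called for 602 of the 60088 tested genes, or 1%, and VRN1-5A, VRN1-5D, FT1-7B and FT1-7D were 4 of them. With a change of at least 2-fold in all 3 lines it was 140 genes, or 0.233%, with the same 4 members among them. Since the genes were chosen with results of these data known, these counts are a description. VRN1-5A was also called higher in WT, a pattern of 204 genes, and FT1-7B and FT1-7D were called lower in WT, a pattern of 222 genes.

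By Pearson correlation of log2(normalized count + 1) over the 24 libraries, the identifiers most like the VRN1 sum were TraesCS3D02G396900 (r = 0.985) and TraesCS3D02G144500 (r = 0.974), among 24 genes over 0.9. TraesCS3D02G144500 had 6.57 ± 4.1 in UBQ drought, 9.21 ± 0.26 in DREM well-watered and 57.0 ± 39 normalized counts in DEH2 drought, and 447 or more on average in the other groups (SD, n = 3 each). Most like the FT1 sum were TraesCS4B02G249100 (r = 0.935) and TraesCS6B02G068300 (r = 0.934), among 53 genes over 0.9. TraesCS6B02G068300 lies in the 6B region lowered in UBQ drought, where its mean was 0.70, and the means of the other groups were 23.7 to 78.4 normalized counts. It did not follow FT1 in DREM, at 38.6 ± 6.0 under drought and 34.9 ± 15 in well-watered plants (SD, n = 3 each). The FT1 sum there had means of 1699 and 155. Between the members, r over the 24 libraries was 0.947 for FT1-7B with FT1-7D, 0.933 for VRN1-5A with VRN1-5D and 0.849 for VRN1-5A with FT1-7B. These correlations are descriptions over libraries that share 8 groups. With the group means removed, r with the VRN1 sum was 0.63 for TraesCS3D02G396900 and 0.49 for TraesCS3D02G144500. With the FT1 sum it was then 0.30 for TraesCS4B02G249100 and 0.60 for TraesCS6B02G068300.

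Over the 6 genes and the 13 comparisons, the median log2 difference of the 10 tested genes on each side of a member on its chromosome lay between -0.73 and 0.29. For VRN1-5A in DREM against WT, well-watered, where the gene stood at -4.38, its 20 neighbours had a median of -0.09 and ran from -1.95 to 0.39. Of these 0 were called higher and 6 lower, beside 11.7% of all tested genes called lower. Among the nearest 5 on each side 0 were called higher and 5 lower, with a median of -0.19. The neighbours of FT1-7B had a median of 0.00 in that comparison, with 3 higher and 1 lower, and those of FT1-7D 0.03, with 2 higher and 1 lower. In UBQ under drought against well-watered, where FT1-7B stood at -9.92, its neighbours had a median of -0.23, with 5 higher and 8 lower. They ran from -2.48 to 3.41. The neighbours of VRN1-5A were at -0.48 in that comparison, with 7 higher and 9 lower, beside 35.6% of all tested genes called lower. They ran from -11.37 to 7.14, while VRN1-5A itself stood at -6.30. For drought in DREM they ran from -8.84 to 12.04, while VRN1-5A stood at 4.45.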

How the data were processed

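Normalized counts, a signal per gene, were deposited by the authors for 107891 identifiers in 24 libraries; per the submitters' processing notes CASAVA, Trimmomatic, STAR, Salmon and DESeq2 were used, without versions, and no source used here gives the genome build. The unit holds no transcript length. The value of 1 read was estimated from genes seen in 1 library. Since 2.03% to 12.9% of the nonzero values of a library were whole multiples of it within 0.01, no count model was fitted. In R 4.3.3 with limma 3.58.1, log2(value + 1) was fitted over 8 groups for the 60088 genes that reached 10 in 3 or more libraries, with limma's trend and robust options; tests were two-sided, with Benjamini-Hochberg adjustment within each of 13 comparisons. Folds are ratios of group means. Tables were handled in R with the data.table package (version 1.17.8) and in Python 3.11.15. On simulated data with 200 changed genes, UBQ against WT under drought recovered 56% of 2-fold and 85% of 4-fold changes, and the difference of drought effects 40% and 71%. The simulated noise was normal with the fitted spread, equal in all groups, and only UBQ drought was changed. These rates therefore do not describe genes with groups near 0 or with unequal spread.

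The 6 genes and the chromosome regions were chosen with earlier results of these data known. The genes named beside them were, by rule, the 2 most correlated with each triad sum. Other flowering genes, leaf markers, promoter motifs and TOR were not analysed here, because no identifier could be paired with a name. Replicate numbers were not used to pair the libraries in the main fit. Alternatives were other pseudocounts, filters, a common sum, fits of the compared groups alone, a replicate block and leaving out each library.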

Additional observations from a re-analysis of the deposited data

Results flagged for a closer look

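Of 18 differences between the drought effect of a line and that of WT, 17 passed the limma test of the difference itself (adjusted p under 0.05), and all 17 are given here as log2 values, line minus WT. In UBQ they were -7.04 for VRN1-5A, -2.99 for VRN1-5B, -7.77 for VRN1-5D, -2.37 for FT1-7A, -8.74 for FT1-7B and -5.77 for FT1-7D. In DREM they were 3.70, 1.14 and 3.50 for VRN1-5A, VRN1-5B and VRN1-5D, and 6.17, 4.10 and 5.90 for FT1-7A, FT1-7B and FT1-7D. In DEH2 they were -4.35 for VRN1-5A, -0.42 for VRN1-5B, -4.72 for VRN1-5D, -1.36 for FT1-7B and -1.02 for FT1-7D. UBQ and DREM thus had opposite signs for every copy. The sign of FT1-7A in UBQ rests on a drought group at 0 reads. With a pseudocount of 10 that difference was -0.44 and was not called (limma, adjusted p = 0.244). All 17 rest on the same WT libraries, and the 2A region differed between the regimes in UBQ and WT, the 6B and 4B regions in UBQ, and the 1B region in DREM and DEH2; the part of this in the differences was not tested. Groups of 3 libraries were not searched for outlying libraries.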

How the results depend on the processing

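Of the 78 differences (6 genes in 13 comparisons), 52 kept their direction and their side of the threshold under every alternative run, and 26 changed under at least 1. A pseudocount of 0.1 widens the spread of genes with a group near 0, and the fit shares that spread over all groups. With it FT1-7B (-1.19) and FT1-7D (-0.87) lost their calls for drought in WT. FT1-7A (1.24) lost its call in DREM against WT under drought. FT1-7A (-1.78) and FT1-7B (-1.75) lost theirs in DEH2 against WT under drought. Calls were also lost for VRN1-5D in well-watered DREM (-4.64) and for FT1-7A (-2.28) and FT1-7D (-0.62) in well-watered DEH2. Among differences of drought effects the call of VRN1-5D in DREM (4.71) was lost. In the DEH2 difference of drought effects VRN1-5D (-5.88), FT1-7B (-1.36) and FT1-7D (-1.03) lost their calls. With a pseudocount of 10, calls were gained for VRN1-5D in well-watered UBQ (1.94) and DEH2 (1.24) and for FT1-7B in well-watered DEH2 (-0.39), and FT1-7A lost the difference of drought effects in UBQ (-0.44). Without a filter, FT1-7A in DREM against WT under drought (1.23, adjusted p = 0.0516) and FT1-7B in the DEH2 difference of drought effects (-1.36, adjusted p = 0.0505) lost their calls. With a common sum the medians of all genes reached at most 0.58 (drought in UBQ, 0.03 before). VRN1-5B then gained a call for drought in DEH2 (0.45) and changed sign in DREM against WT under drought (0.14). Calls were lost for VRN1-5A in DREM against WT under drought (-0.20) and for VRN1-5B in DEH2 against WT under drought (-0.041). In the DEH2 difference of drought effects VRN1-5B (-0.18) and FT1-7B (-1.12) lost their calls. Fitted with the compared groups alone, VRN1-5D lost its call in DEH2 against WT under drought (-3.25), and calls were gained for VRN1-5D in well-watered UBQ (2.21) and DEH2 (1.46) and for FT1-7B in well-watered DEH2 (-0.39). Deviations of same-numbered libraries of compared groups had r from -0.05 to 0.04. Of 24 libraries 14 were closest to their own number, and whether this exceeds the number without pairing was not tested. The replicate block changed 1 call, VRN1-5D in the DREM difference of drought effects (3.50, adjusted p = 0.0504).

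Leaving out 1 library at a time gave these ranges where a call or a sign changed. VRN1-5B for drought in DEH2 ranged from -0.00042 to 0.10, and FT1-7A from -0.064 to 0.54. In DREM against WT under drought, VRN1-5D ranged from -0.14 to 0.28, FT1-7A from 0.96 to 1.43 and FT1-7B from -0.013 to 0.080. In well-watered plants VRN1-5D ranged from 1.75 to 2.69 in UBQ and from -3.91 to -2.53 in DREM, and in DEH2 VRN1-5B ranged from 0.0090 to 0.22 and FT1-7D from -0.74 to -0.47. Among differences of drought effects VRN1-5D in DREM ranged from 2.60 to 3.98 and FT1-7B in DEH2 from -1.49 to -1.23. Of the 66 called differences, 12 moved by over 1.5 times when 1 library was left out, 21 with a pseudocount of 0.1 and 26 with a pseudocount of 10. The cause of these changes was not tested. Copies near the floor of 3 reads, VRN1-5D and FT1-7A above all, limit the precision.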
